A study of Homo sapiens with 8 samples.

Results

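The genes described here are 10 core genes of the circadian clock, chosen by symbol from the 23459 genes of the count table, with earlier results of these data known: the period genes PER1, PER2 and PER3, the cryptochromes CRY1 and CRY2, the activators ARNTL (also called BMAL1) and CLOCK, the nuclear receptors NR1D1 and NR1D2, and DBP. Their RNA was measured by total RNA sequencing in Hct116 cells, an established human colon carcinoma line, treated for 16 h with lenalidomide at 30 μM or with its solvent DMSO, in 4 libraries per treatment. The labels name this one line for both groups, with no transgene or deletion, so the groups differ by the drug alone as far as the labels say. Lenalidomide binds the ubiquitin ligase substrate receptor CRBN and redirects it to new protein substrates, among them the kinase CK1α. RNA was taken at a single time, so each level is a snapshot and no rhythm was measured. The labels have both groups receive the compound or DMSO in prewarmed DMEM. By the study's text, Hct116 cells went into medium with differently labelled amino acids at that moment, with either treatment. It states that RNA sequencing used the samples of the mass spectrometry, so the sequenced cultures had this change. Fresh medium with serum can reset clocks, and the effect of the change on these levels was not tested.

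The clock is a feedback loop of transcription. CLOCK and ARNTL proteins pair and activate genes that carry E-box sequences, among them the PER and CRY genes, whose proteins return to the nucleus and repress the pair, while the casein kinases CK1δ and CK1ε phosphorylate PER proteins and so set their lifetime. In a second loop the REV-ERB receptors encoded by NR1D1 and NR1D2 repress ARNTL through ROR response elements, and DBP drives genes through D-boxes. Most tissues run this loop, gut epithelium included.

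Library totals were 35268940 to 37473413 counts with DMSO and 28218471 to 33659982 counts with lenalidomide, so the largest lenalidomide library held fewer counts than the smallest DMSO one. Of the 23459 genes, 13925 had enough counts to be tested, and all 10 clock genes were among them. Levels are given as CPM, the usual per-million scale of counts, after TMM scaling of the library sizes. A figure legend of the study calls the 4 libraries of a treatment biological replicates, while its methods call the 4 protein measurements of these samples technical replicates. Of those 4 per treatment, 2 had the isotope labels swapped, and the labels here do not say which libraries they match. Nothing in the labels says how the cultures were kept apart, so a p-value here measures only the spread between these libraries. For the epithelial line the libraries held EPCAM at 557 to 665 CPM and CDX2, a transcription factor of intestinal epithelium, at 7.18 to 9.08 CPM, whereas VIL1, the villin gene of the intestinal brush border, had at most 2 counts in any library. The summed level of 7 markers of leukocytes, endothelium, fibroblasts and red cells was 2.73 to 3.36 CPM with DMSO and 2.71 to 3.95 CPM with lenalidomide, most of it COL1A1, and none of the 7 was at 0 in every library.

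Elements through which the loop acts were looked for, as letters, in the promoters of the 10 genes. The RefSeq promoter table for GRCh38.p14 holds 300 bases per gene start, 250 before it and 50 after, and has an entry for all 10 genes, with ARNTL under BMAL1. Both strands were searched for the E-box CACGTG, the D-box TTANGTAA, the ROR response element TAGGTCA and the cAMP response element TGACGTCA, letters that do not overlap one another in the matches found. Counted per gene over the 27305 genes of the table, of which some have several starts, as have 5 of the 10, the E-box was present in 8.77% of genes and in PER1 and NR1D2. The D-box was present in 2.71% of genes and in PER2, PER3 and NR1D2, and the ROR element in 2.29% of genes and in CRY2 and ARNTL. The cAMP response element was present in 2.25% of genes and in 0 of the 10. Over the 35116 single promoters the shares were 7.26%, 2.18%, 1.85% and 1.85% in that order. The stretches below are shown because they hold these matches, with the motif in capitals, 5′ to 3′ on the strand of the gene, and with positions in bases from the gene start. In NR1D2 the D-box was matched on the opposite strand, so its capitals are the reverse complement of the letters searched. These are matches of letters and not measured binding, and windows of this length leave out enhancers.
PER1, E-box starting at -173, chr17:8152546-8152603, minus strand: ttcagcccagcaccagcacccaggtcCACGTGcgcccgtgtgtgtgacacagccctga
NR1D2, D-box starting at -194 and E-boxes at -155 and -105, chr3:23945917-23946031, plus strand: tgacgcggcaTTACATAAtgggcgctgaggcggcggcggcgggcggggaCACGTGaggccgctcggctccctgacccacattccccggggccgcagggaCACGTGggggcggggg
PER2, D-box starting at -3, chr2:238288595-238288624, minus strand: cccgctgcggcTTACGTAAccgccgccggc
PER3, D-box starting at -177, chr1:7784088-7784147, plus strand: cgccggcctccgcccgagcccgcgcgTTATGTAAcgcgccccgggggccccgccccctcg
CRY2, ROR element starting at -65, chr11:45847384-45847442, plus strand: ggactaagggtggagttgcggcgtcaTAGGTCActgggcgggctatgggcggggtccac
ARNTL, ROR element starting 31 bases after the start, chr11:13277809-13277837, plus strand: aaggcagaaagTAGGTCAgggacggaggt

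Levels of different genes were compared per exonic length, as RPKM from the TMM-scaled counts and the exonic widths of the count table. GENCODE widths differ, at 6934 against 3387 bases for ARNTL, 4782 against 3294 for CRY1 and 2630 against 2775 for NR1D1. The order of the genes, such as ARNTL above NR1D1, and their ratios rest on the widths used, and others were not tried. NR1D2 and CLOCK were the most abundant clock RNAs, at 32.3 ± 0.997 and 26.2 ± 0.991 RPKM (SD over all 8 libraries). They stood at the 84.4 and 80.9 percentiles of the genes tested, whose median level was 6.41 RPKM. CRY1 followed at 8.52 ± 0.607 RPKM, ARNTL at 6.69 ± 0.298 RPKM and NR1D1 at 3.75 ± 0.232 RPKM, with ranges over the 8 libraries that did not overlap their neighbours. The remaining genes lay below the 38.9 percentile that NR1D1 reached. PER1 at 2.38 ± 0.254, PER2 at 2.08 ± 0.153 and CRY2 at 1.59 ± 0.134 RPKM formed a chain in which each overlapped the next, since PER1 ranged from 2.02 to 2.71, PER2 from 1.84 to 2.28 and CRY2 from 1.44 to 1.85 RPKM. DBP at 0.911 ± 0.105 and PER3 at 0.604 ± 0.0748 RPKM were lowest and their ranges, 0.755 to 1.05 and 0.498 to 0.759 RPKM, overlapped by a narrow margin. Ranked by mean RPKM, the 10 genes had the same order in the DMSO libraries alone and in the lenalidomide libraries alone. RLE scaling gave this order too, but it scales all genes of a library alike and so could hardly change it. All of these rankings used the same exonic widths.

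**Figure D1:**
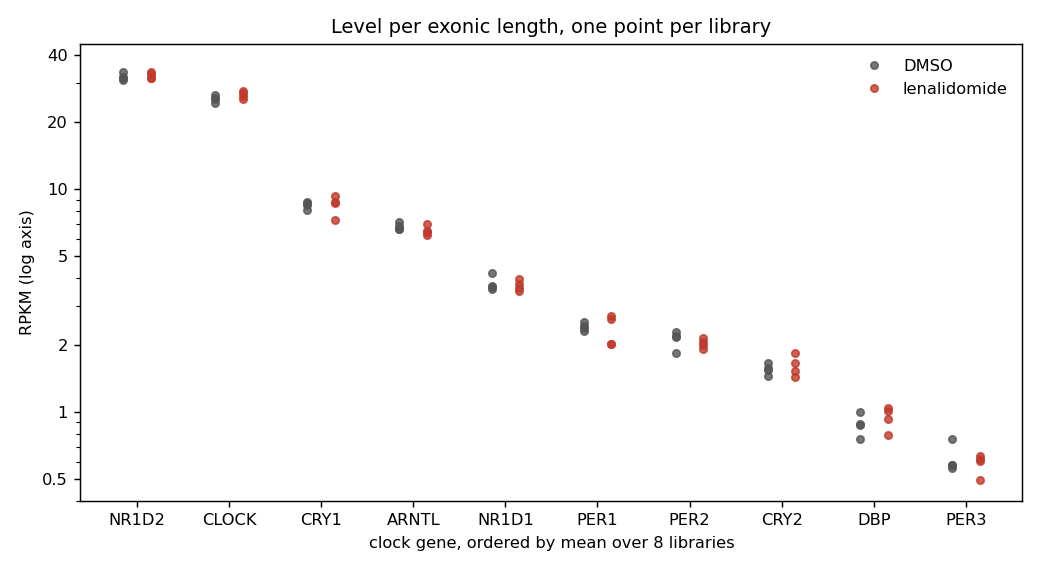
RPKM of the 10 clock genes on a log axis, ordered by their mean, 1 point per library, grey for DMSO and red for lenalidomide. NR1D2 (31.1 to 33.6) and CLOCK (24.5 to 27.7) lie above all the others, and DBP and PER3 lie lowest.

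Among genes that share a role, each pair compared kept 1 order in all 8 libraries except PER1 and PER2. Per length, CRY1 RNA was 5.39 ± 0.679 times that of CRY2 (SD over 8 libraries), NR1D2 8.65 ± 0.592 times NR1D1 and CLOCK 3.92 ± 0.311 times its partner ARNTL. PER1 stood at 3.97 ± 0.465 times PER3, and PER2 at 0.88 ± 0.105 times PER1, a ratio that ran from 0.759 to 1.06 and so crossed 1. Against the paralogs that can stand in for the activators, ARNTL2 RNA was 1.87 ± 0.0794 times ARNTL, and CLOCK was 8.08 ± 0.56 times NPAS2. Of the relatives of DBP that bind the same D-boxes, TEF stood at 2.93 ± 0.37 times DBP, and DBP at 2.41 ± 0.503 times HLF.

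The comparison of the 2 treatments asked whether 16 h of lenalidomide moved the RNA of the clock genes. None of the 10 passed the test, and the values of the 4 lenalidomide libraries overlapped those of the 4 DMSO libraries for every one of them. The fitted log2 fold changes ran from -0.081 for PER3 to 0.0999 for DBP, 5 above and 5 below 0, with a median of -0.010 beside 0.0025 over all genes tested. All 10 95% intervals held 0, and all 10 lay within a 1.5-fold change in either direction.

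In the quasi-likelihood test of edgeR, with Benjamini-Hochberg adjustment over all 13925 genes, 0 of the 10 had an adjusted p under 0.05, beside 2 genes or 0.0144% of all genes tested. At an unadjusted p under 0.05 the count was also 0 of 10, beside 582 genes or 4.18%. DESeq2, the likelihood ratio test and the fit with the replicate number as a block gave 0 of 10 on either measure too. Groups without overlap were found for 0 of 10 clock genes, beside 290 genes or 2.08%. A log2 fold change over 0 was fitted for 5 of 10, beside 51.3% of all genes, and one of less than 0.1 in size for all 10, beside 71.9%. DBP lay at the edge of that bound, at 0.0999, and was at 0.14 with the libraries thinned to equal totals. These intervals had half-widths of 0.11 to 0.27, with a median of 0.17 beside 0.17 over all genes tested, and the outermost bounds were a change of -21.8% and one of 27.3%. A difference within these intervals was not detectable with 4 libraries per treatment. Library size and treatment cannot be told apart, since the totals did not overlap, and after thinning of the libraries to equal totals 0 of 10 passed on either measure. In bulk RNA, fewer cells that express a gene and less RNA per cell cannot be told apart.

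**Figure D2:**
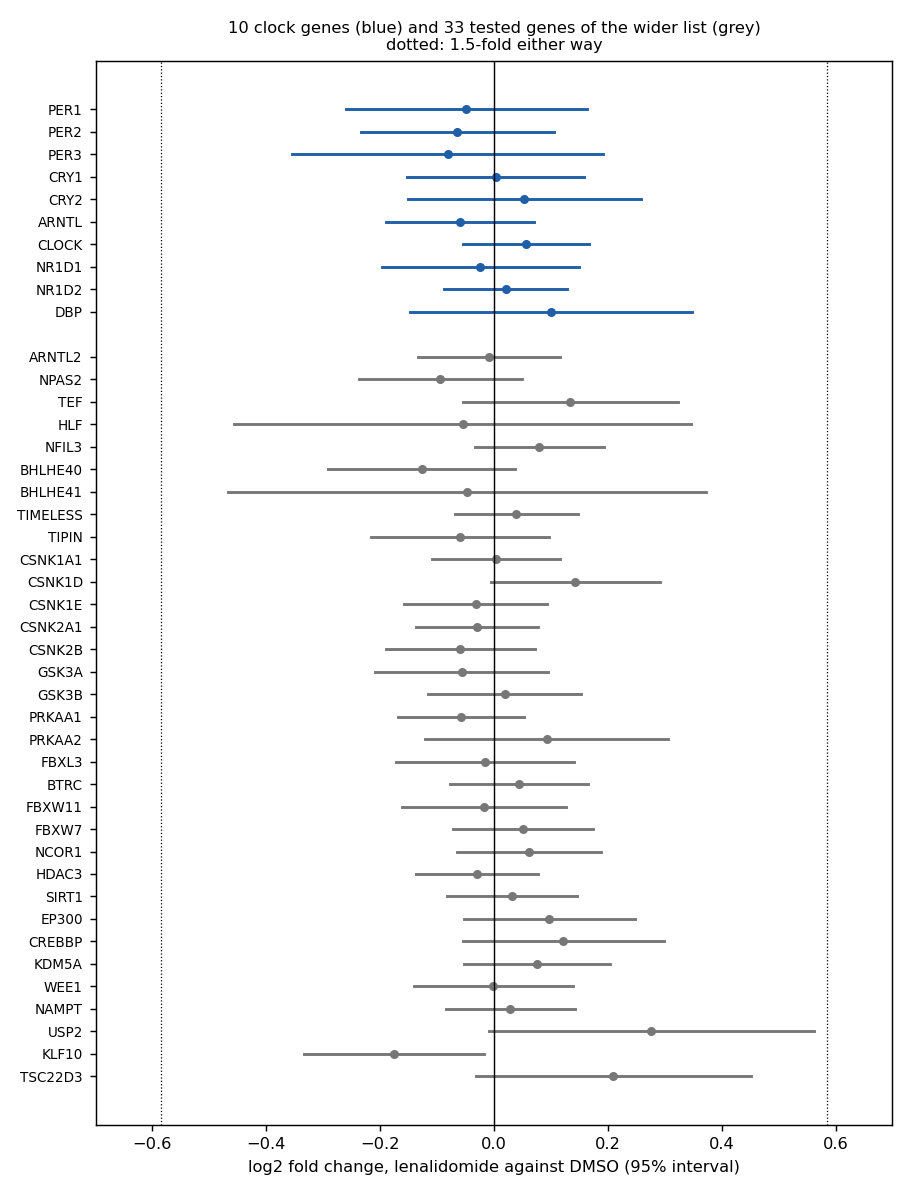
log2 fold change, lenalidomide against DMSO, with 95% intervals for the 10 clock genes (blue) and the 33 tested genes of a wider clock list (grey), with dotted lines at a 1.5-fold change either way. Every blue interval crosses 0 and lies inside the dotted lines, and KLF10 is the one gene whose grey interval does not cross 0.

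Of the activators, ARNTL was measured at 22.6, 24.2, 22.6 and 23.2 CPM in the 4 DMSO libraries and 22, 23.8, 21.1 and 21.9 CPM in the 4 lenalidomide libraries. Of the lenalidomide values 3 lay below the lowest DMSO value, and replicate 2 lay inside the DMSO range. The means were 23.1 ± 0.739 CPM in DMSO libraries and 22.2 ± 1.12 CPM in lenalidomide libraries (SD over n = 4 libraries of each), a log2 fold change of -0.060 (SE 0.060, 95% interval -0.19 to 0.070), with a two-sided exact permutation p of 0.171, where 0.0286 is the smallest that 4 against 4 allows. CLOCK, at 287, 273, 284 and 296 CPM with DMSO and 293, 284, 308 and 300.5 CPM with lenalidomide, was the best counted of the genes, with 8668 to 11207 counts per library. Its 2 highest libraries were from lenalidomide, and the DMSO maximum stood above the other two lenalidomide values. The log2 fold change was 0.056 (SE 0.052, 95% interval -0.055 to 0.17) between means of 285 ± 9.61 CPM in DMSO libraries and 296 ± 10.2 CPM in lenalidomide libraries (SD over n = 4 libraries of each), with an exact permutation p of 0.2. CLOCK encodes the partner of ARNTL, and the ratio of CLOCK to ARNTL per length was 3.76 ± 0.216 with DMSO and 4.08 ± 0.332 with lenalidomide (SD, n = 4 each). On GRCh37 ARNTL lies at chr11:13298199-13408813, plus strand, and shares 421 exonic bases with a long noncoding RNA gene on the opposite strand. CLOCK lies at chr4:56294070-56413076, minus strand, and shares 76 exonic bases with TMEM165 on the opposite strand, a gene with a log2 fold change of -0.022.

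The period genes encode the repressor subunits that casein kinase 1 phosphorylates. PER1, also an early gene induced by serum and cAMP, stood at 14.2, 14, 14.9 and 13.5 CPM with DMSO and at 15.9, 11.9, 11.8 and 15.3 CPM with lenalidomide. Lenalidomide replicates 1 and 4 lay above every DMSO library and replicates 2 and 3 below every one, so the 4 values straddled the DMSO range. The coefficient of variation was 4.22% with DMSO and 15.8% with lenalidomide, where counting alone gives 4.61%. Means were 14.1 ± 0.597 CPM in DMSO libraries and 13.7 ± 2.16 CPM in lenalidomide libraries (SD over n = 4 libraries of each), with a log2 fold change of -0.049 (SE 0.098, 95% interval -0.26 to 0.16) and an exact permutation p of 0.686; without lenalidomide replicate 2 or 3 the fold change was 0.015. PER2 was at 16.2, 15.6, 15.7 and 13.1 CPM with DMSO and 14.7, 15.3, 13.7 and 14.2 CPM with lenalidomide, and its lowest library was DMSO replicate 4. All 4 lenalidomide values fell inside the DMSO range, with means of 15.1 ± 1.41 CPM in DMSO libraries and 14.5 ± 0.694 CPM in lenalidomide libraries (SD over n = 4 libraries of each), a log2 fold change of -0.064 (SE 0.079, 95% interval -0.23 to 0.11) and an exact permutation p of 0.429.

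PER3, the least abundant of the 10, was at 5.01, 3.84, 3.71 and 3.83 CPM with DMSO and 4.05, 3.98, 3.28 and 4.19 CPM with lenalidomide, from 108 to 187 counts per library. DMSO replicate 1 was above every other library and lenalidomide replicate 3 below, and the remaining 6 lay between 3.71 and 4.19 CPM. The means were 4.09 ± 0.61 CPM in DMSO libraries and 3.88 ± 0.406 CPM in lenalidomide libraries (SD over n = 4 libraries of each), the log2 fold change -0.081 (SE 0.13, 95% interval -0.36 to 0.19), the widest interval of the 10, and the exact permutation p 0.629; without DMSO replicate 1 the fold change was 0.027. The period genes lie on GRCh37 at chr17:8043790-8059824, minus strand (PER1), chr2:239152685-239198743, minus strand (PER2) and chr1:7844351-7905237, plus strand (PER3). PER1 exons share 30 bases with another protein-coding gene on the same strand. PER2 exons share 188 bases with a long noncoding RNA gene on the opposite strand. PER3 exons share 482 bases with a long noncoding RNA gene and 868 with UTS2, both on the opposite strand. The log2 fold change of UTS2 was -0.16 at about 1 CPM, and no source states whether the counting used strand.

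**Figure D3:**
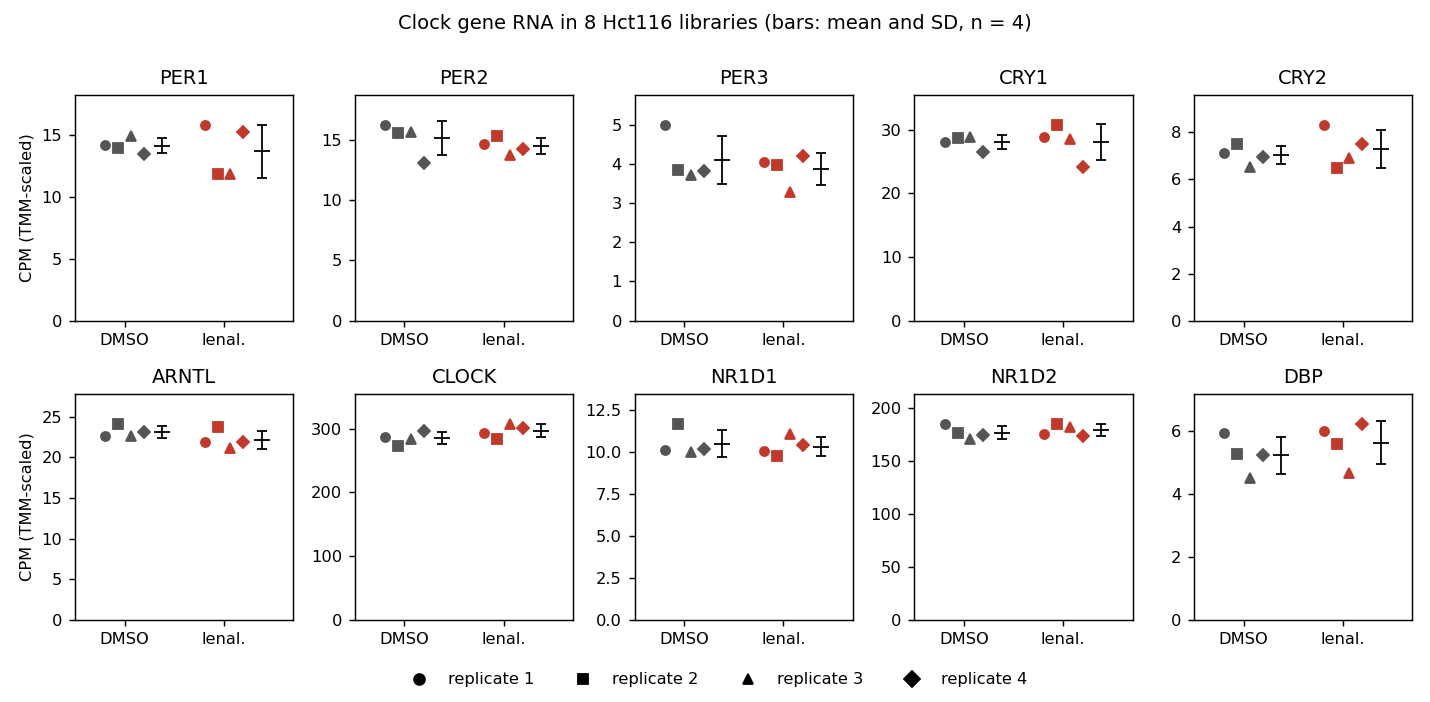
CPM of each clock gene in the 8 libraries, grey for DMSO and red for lenalidomide, with the marker shape giving the replicate number and the bar the mean and SD of 4 libraries, on axes that start at 0. The ranges of red and grey points overlap for every gene, and for PER1 the red points lie in pairs above (15.3 and 15.9) and below (11.8 and 11.9) the grey ones.

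The cryptochromes are the PER partners that hold the CLOCK and ARNTL pair in check. CRY1 was measured at 28, 28.8, 28.9 and 26.5 CPM with DMSO and 28.9, 30.8, 28.6 and 24.1 CPM with lenalidomide, and the highest and the lowest of the 8 libraries were both from lenalidomide. Its means, 28 ± 1.09 CPM in DMSO libraries and 28.1 ± 2.85 CPM in lenalidomide libraries (SD over n = 4 libraries of each), gave the log2 fold change nearest to 0 among the 10, 0.0029 (SE 0.073, 95% interval -0.15 to 0.16), with an exact permutation p of 0.971. Its sign turned with RLE scaling, with DESeq2 and without DMSO replicate 1 or 4 or lenalidomide replicate 1, 2 or 3, down to -0.045. CRY2 stood at 7.12, 7.5, 6.55 and 6.97 CPM with DMSO and 8.34, 6.48, 6.9 and 7.52 CPM with lenalidomide. The highest value, lenalidomide replicate 1, and the lowest, lenalidomide replicate 2, again came from the same group. The means of CRY2 were 7.04 ± 0.397 CPM in DMSO libraries and 7.31 ± 0.805 CPM in lenalidomide libraries (SD over n = 4 libraries of each), the log2 fold change was 0.053 (SE 0.096, 95% interval -0.15 to 0.26) and the exact permutation p 0.657; without lenalidomide replicate 1 the fold change was -0.016. CRY1 lies on GRCh37 at chr12:107385142-107487327, minus strand, and shares 94 exonic bases with a long noncoding RNA gene on the opposite strand. CRY2 lies at chr11:45868669-45904799, plus strand, with no other gene in its exons.

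The REV-ERB receptors repress ARNTL in the second loop. NR1D1 was at 10.1, 11.7, 9.96 and 10.2 CPM with DMSO and 10.1, 9.74, 11 and 10.4 CPM with lenalidomide, and DMSO replicate 2 stood above the other 7 libraries. The means were 10.5 ± 0.80 CPM in DMSO libraries and 10.3 ± 0.556 CPM in lenalidomide libraries (SD over n = 4 libraries of each), with a log2 fold change of -0.024 (SE 0.080, 95% interval -0.20 to 0.15) and an exact permutation p of 0.686; without DMSO replicate 2 the fold change was 0.032, and without lenalidomide replicate 2 it was 0.0026. NR1D2 was at 185, 176, 171 and 174 CPM with DMSO and 175, 185, 182 and 174 CPM with lenalidomide. Every lenalidomide value of NR1D2 but replicate 2 lay inside the DMSO range. Its means were 176 ± 5.94 CPM in DMSO libraries and 179 ± 5.53 CPM in lenalidomide libraries (SD over n = 4 libraries of each), its log2 fold change was 0.021 (SE 0.050, 95% interval -0.087 to 0.13), the narrowest interval of the 10, and its exact permutation p 0.6. NR1D1 lies on GRCh37 at chr17:38249046-38256842, minus strand, and shares 473 exonic bases with THRA, the thyroid hormone receptor gene on the opposite strand, which had a log2 fold change of -0.026. NR1D2 lies at chr3:23986777-24022108, plus strand, with no other gene in its exons.

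DBP, a D-box activator and a direct output of the loop, was measured at 5.94, 5.27, 4.5 and 5.23 CPM with DMSO and 6.0, 5.58, 4.68 and 6.24 CPM with lenalidomide. Lenalidomide replicates 1 and 4 were the 2 highest libraries and DMSO replicate 3 the lowest. The means were 5.23 ± 0.589 CPM in DMSO libraries and 5.63 ± 0.685 CPM in lenalidomide libraries (SD over n = 4 libraries of each), the log2 fold change was 0.10 (SE 0.12, 95% interval -0.15 to 0.35) and the exact permutation p 0.4. For DBP the log2 fold change was 0.032 if DMSO replicate 3 was left out and was 0.18 if lenalidomide replicate 3 was. The gene lies on GRCh37 at chr19:49133287-49140636, minus strand, and shares 661 exonic bases with SPHK2, the sphingosine kinase gene on the opposite strand. SPHK2 was at 5.61 ± 0.634 CPM in DMSO libraries and 6.35 ± 0.912 CPM in lenalidomide libraries (SD over n = 4 libraries of each), a log2 fold change of 0.17 (SE 0.12, 95% interval -0.082 to 0.43), and its share in the counts of DBP was not tested.

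By the median, and without regard to level, libraries of the same treatment differed in the clock genes by about as much as in all genes tested. The biological coefficient of variation of the fit had a median of 7.29% over the 10 clock genes and 7.41% over all genes tested. PER1, at 9.27% where the trend for its level was 8.29%, was the one clock gene above its trend. The others lay below theirs, such as ARNTL at 5.82% against 7.55%. The share of all genes tested that lay above their trend was not counted. Deviations from the mean of the 8 libraries, on the log2 CPM scale, had a median over the 10 genes from -0.075 in lenalidomide replicate 3 to 0.027 in lenalidomide replicate 2. Replicate 3 of lenalidomide held the lowest value of PER1 (-0.23), PER3 (-0.27) and ARNTL (-0.099) and the highest of CLOCK (0.084). PER1, PER3, CRY2 and DBP each stood higher in lenalidomide replicates 1 and 4 than in replicates 2 and 3. NR1D2 stood lower in both (-0.023 and -0.032 against 0.059 and 0.037), and the other clock genes showed neither order. This split of the replicates was read off the values themselves. How many of all genes tested show either order was not counted, so it is not given as a trait of the clock genes. For PER1 the deviations were 0.19 and 0.14 against -0.22 and -0.23, and for DBP 0.15 and 0.21 against 0.047 and -0.20. Replicates 1 and 4 were also the 2 smallest libraries of the 8, and the part of library size in these values was not tested.

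**Figure D4:**
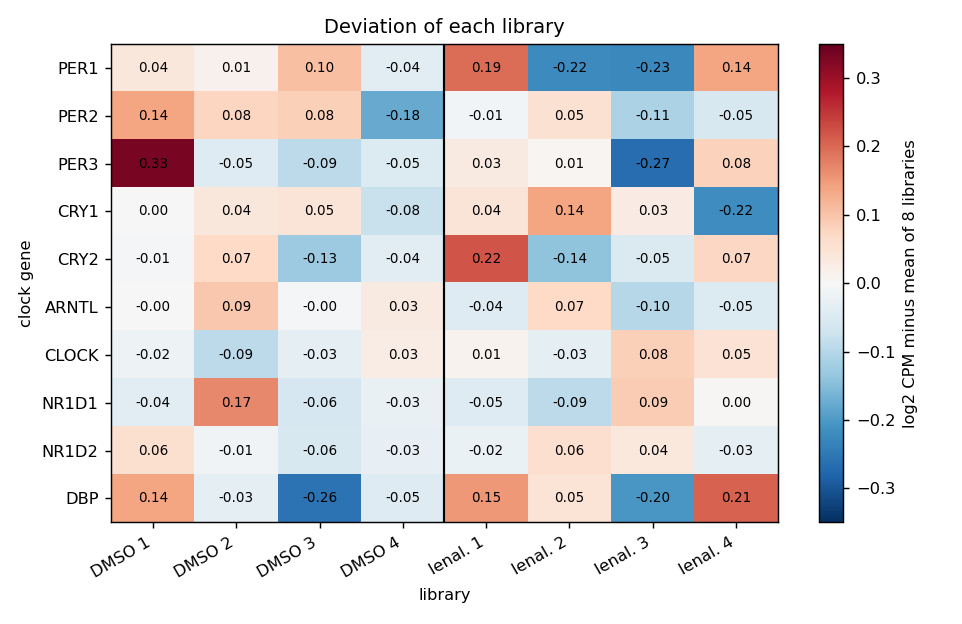
Deviation of each library from the mean of the 8, in log2 CPM, for the 10 clock genes (rows), with red above and blue below the mean and a line between DMSO and lenalidomide. The deepest colours belong to PER3 in DMSO replicate 1 (0.33) and in lenalidomide replicate 3 (-0.27).

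Whether clock genes varied together across the 8 libraries was examined for all 45 pairs, with exact permutation p-values and Benjamini-Hochberg adjustment over the 45. Treatment means were not removed, so differences between the treatments enter these coefficients and their p-values. None passed after adjustment, 3 had an unadjusted p under 0.05 by Pearson's r and 2 by Spearman's rho, and 24 coefficients were positive and 21 negative with a median r of 0.024. The pair with the smallest Pearson p was ARNTL and CLOCK, which together form the activator, with r = -0.855 (exact permutation p = 0.00734, adjusted p = 0.33) and rho = -0.833 (exact permutation p = 0.0154, adjusted p = 0.346). Without the 2 libraries farthest from the median of ARNTL r was -0.548. PER3 and DBP, the least abundant clock RNAs, gave r = 0.747 (exact permutation p = 0.0243, adjusted p = 0.519) and rho = 0.905 (exact permutation p = 0.00456, adjusted p = 0.205), and r = 0.964 without the 2 farthest libraries. PER2 and CLOCK gave r = -0.741 (exact permutation p = 0.0346, adjusted p = 0.519) and rho = -0.714 (exact permutation p = 0.0576, adjusted p = 0.625), and r = -0.685 without the 2 farthest. With 1 library left out at a time, 1 pair passed in 1 case, CLOCK and NR1D1 without DMSO replicate 2. It had r = 0.928 and an adjusted exact permutation p of 0.0357, adjusted over the 45 pairs of that case alone. Over all 8 libraries the same pair had r = -0.112 (exact permutation p = 0.788). DMSO replicate 2 held the highest value of NR1D1 and the lowest of CLOCK. The early gene FOS shares serum and cAMP as inducers with PER1. It stood at 17.4, 15, 21 and 48.2 CPM with DMSO and 7.04, 5.88, 10.8 and 15 CPM with lenalidomide. Of these lenalidomide values 3 lay below every DMSO library. The log2 fold change of FOS, -1.40, was the lowest of all genes tested. For it edgeR gave a p of 0.00117 before adjustment and 0.854 after it, and the exact permutation test 0.0571. PER1 had r = 0.181 with FOS (exact permutation p = 0.671), and 0 of the 10 correlations with FOS passed before or after adjustment over the 10. This treatment difference of FOS enters the 10 correlations, so they cannot show whether clock genes followed FOS among libraries of the same treatment.

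**Figure D5:**
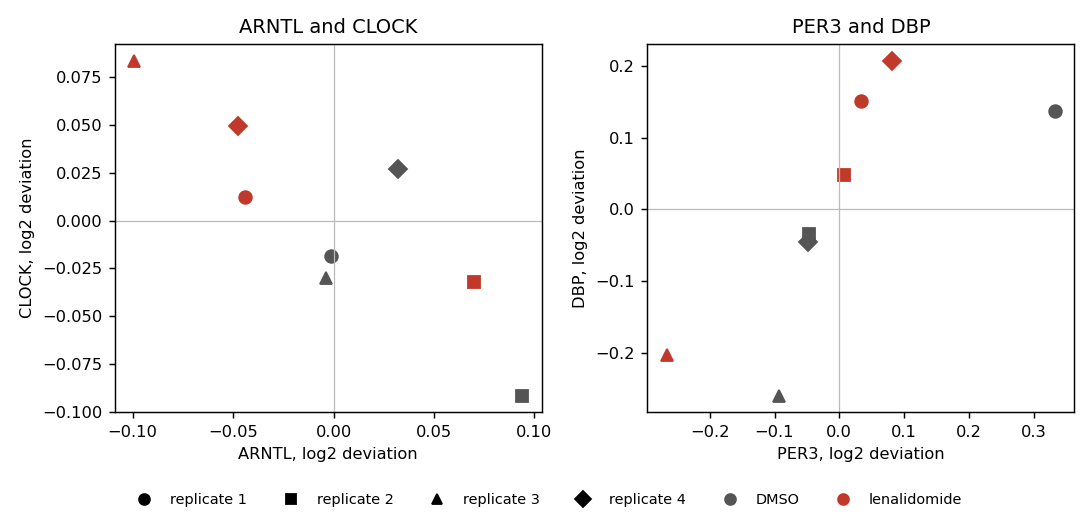
Deviation of each library from the mean of the 8 (log2 CPM) for ARNTL against CLOCK and PER3 against DBP, 1 point per library, grey for DMSO and red for lenalidomide, with the shape giving the replicate number. The left points fall from lenalidomide replicate 3 to DMSO replicate 2 (r = -0.855) and the right ones climb from both replicates numbered 3 (r = 0.747).

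Around the 10 genes, a wider list of 38 clock genes was read from the same fit, of which 33 were tested. After adjustment over all genes 0 of the 33 passed in edgeR's quasi-likelihood test, and DESeq2 and the likelihood ratio test gave 0 as well. KLF10 was the 1 of 33 with an unadjusted p under 0.05, beside 4.18% of all genes. Of the 33, 17 had a log2 fold change over 0 and 16 one below, beside 51.3% over 0 of all genes, with a median of 0.0036 and a range of -0.18 to 0.28. The receptor genes RORA and RORB, whose proteins activate ARNTL at the elements that REV-ERB receptors occupy, were hardly counted, with at most 13 counts in a library, and were not tested, nor were CIART and FBXL21, with at most 6. By contrast both REV-ERB genes were tested, with NR1D2 the highest of the 10 clock RNAs per length.

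The kinases include those that act on PER proteins. CSNK1A1, which encodes CK1α, the kinase whose protein lenalidomide directs to degradation, had a log2 fold change in RNA of 0.0036 (SE 0.052, 95% interval -0.11 to 0.12), and CSNK1E, which encodes CK1ε, one of -0.032. CSNK1D, which encodes CK1δ, stood at 31.5, 33.6, 35.9 and 33.8 CPM with DMSO and at 36.7, 33.6, 36.8 and 41.8 CPM with lenalidomide. Of these lenalidomide values 3 lay above every DMSO library, with a log2 fold change of 0.14 (SE 0.069, 95% interval -0.0056 to 0.29) and an exact permutation p of 0.0857. Without lenalidomide replicate 4, the highest of them, the log2 fold change of CSNK1D was 0.084, and it was 0.19 without lenalidomide replicate 2. Over the 9 kinases 4 fold changes were above and 5 below 0, from -0.059 for the casein kinase 2 subunit CSNK2B to 0.14 for CSNK1D, and 0 passed at an unadjusted p under 0.05.

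In the other roles the paralogs of the activators ARNTL2 and NPAS2 had log2 fold changes of -0.0092 and -0.095. Among the bZIP factors at D-boxes, TEF, an activator like DBP, had 0.13 and HLF -0.055, and 2 of 3 were above 0. The group listed with BHLHE40, an E-box repressor, ran from -0.13 for BHLHE40 itself to 0.039 for TIMELESS, with 1 of 4 above 0. The F-box genes, whose proteins send PER and CRY or other targets to degradation, ran from -0.017 for FBXW11 to 0.051 for FBXW7, with 2 of 4 above 0. Of the corepressor and chromatin genes 5 of 6 were above 0, from -0.030 for the deacetylase HDAC3 to 0.12 for the acetyltransferase CREBBP, and 0 of 6 passed at an unadjusted p under 0.05.

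Among 5 output genes the deubiquitinase gene USP2 had the highest log2 fold change of the wider list, 0.28 (SE 0.13, 95% interval -0.0089 to 0.56), on a low level of 3.77 ± 0.60 CPM in DMSO libraries and 4.57 ± 0.546 CPM in lenalidomide libraries (SD over n = 4 libraries of each). KLF10, a zinc finger repressor, had the lowest. It was measured at 91.7, 93, 114 and 88.9 CPM with DMSO and 86.3, 84.9, 90.5 and 81 CPM with lenalidomide, where DMSO replicate 3 stood above all others and the ranges overlapped. The log2 fold change of KLF10 was -0.18 (SE 0.073, 95% interval -0.33 to -0.018), for which edgeR gave a p of 0.0314 before adjustment and 0.999 after it, and the exact permutation test 0.0571. Without DMSO replicate 3 the log2 fold change of KLF10 was -0.094, and the p before adjustment was no longer under 0.05. Without lenalidomide replicate 1, 2 or 4 that p was also above 0.05, with log2 fold changes of -0.18, -0.17 and -0.15.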

How the data were processed

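Total RNA of 8 Hct116 libraries was sequenced with the ScriptSeq kit, and bcl2fastq 2.17 is named in the submitters' processing notes. The authors aligned reads to hg19 with QuasR (spliced alignment, default parameters) and deposited raw read counts per gene over UCSC known genes; the versions and the strand setting are not given in the sources used here. The labels name DMEM with serum, and the study a SILAC medium for the cultures it split between mass spectrometry and RNA sequencing. Analysis of the counts used R 4.3.3, edgeR 4.0.16 (filterByExpr with minimum count 10 and minimum total 15, TMM, quasi-likelihood test), limma 3.58.1 and DESeq2 1.42.0, with Benjamini-Hochberg adjustment over 13925 genes at 0.05 and 95% intervals. Correlations used log2 CPM with a prior count of 2, and RPKM the exonic width in the count table. Gene positions are from GENCODE v44lift37 on GRCh37, the build of the alignment, matched through Entrez identifiers. Libraries of the same treatment differed beyond sampling noise (chi-square per degree of freedom 5.55 to 24.1), so none looked like a library deposited again, which does not tell separate cultures from separate preparations. Tests were tested on simulated counts.

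The members and the lists were chosen with earlier results of these data known. Named from the wider list are genes with an unadjusted p under 0.05, the highest and lowest log2 fold change of each role, and the CSNK1 genes. Genes that overlap a member on the other strand, named for their shared bases, were chosen for that overlap. The alternatives tried were DESeq2, RLE scaling, a likelihood ratio test, filters of 1 count in all and of 10 counts in every library, libraries thinned to 28218471 counts, a replicate block and leaving out each library. The values of 1 gene of the wider list are not reported here.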

Additional observations from a re-analysis of the deposited data

Results flagged for a closer look

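In 4 of 52 groups of 4 libraries, each a named gene in 1 treatment, 1 library stood far from the other three by Dixon's criterion, where chance alone gives about 1 in 20, or 2.6 of 52. PER3 was at 5.01 CPM in DMSO replicate 1, while the other DMSO libraries lay between 3.71 and 3.84 CPM. NR1D1 was at 11.7 CPM in DMSO replicate 2, and its other DMSO values lay between 9.96 and 10.2 CPM. FBXW11 was at 69.8 CPM in lenalidomide replicate 2, below other lenalidomide values between 78.9 and 79.3 CPM. KLF10 was at 114 CPM in DMSO replicate 3, above other DMSO values between 88.9 and 93 CPM. The cause of these 4 values was not tested.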

How the results depend on the processing

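No clock gene passed an adjusted or unadjusted p of 0.05 under any alternative, and the smallest values over the 15 alternatives were an adjusted p of 0.783 and an unadjusted p of 0.11 by the tools run. Genes past the adjusted threshold over all genes, 2 in the reported fit, were 7 with DESeq2, 12 by likelihood ratio, 4 when genes with 1 count or more were all kept, and 1 to 2 with 1 library left out. Genes at an unadjusted p under 0.05, 582 as reported, were 903 under that filter, and 306 to 1042 with 1 library left out (359 without DMSO replicate 1, 306 without lenalidomide replicate 4, 1042 without lenalidomide replicate 2). In the wider list such genes, 1 as reported, were 2 under it (KLF10 and USP2) and 0 to 4 with 1 library left out, 4 without lenalidomide replicate 3 and 0 without lenalidomide replicate 1 or 4. Clock genes with a log2 fold change over 0 numbered 3 to 6 with 1 library left out, 3 without lenalidomide replicate 1, and correlated pairs 0 to 1. The causes were not tested.

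Of 150 log2 fold changes of the clock genes under alternatives, 135 kept their direction and 15 turned. CRY1 was -0.00097 with RLE scaling, -0.0040 with DESeq2 and -0.0049 under the 1-count filter, and CSNK1A1 -0.00032, -0.0034 and -0.0047 in that order. Leaving out 1 library gave ranges across 0 of -0.13 to 0.015 for PER1, -0.13 to 0.027 for PER3, -0.045 to 0.069 for CRY1, -0.016 to 0.11 for CRY2, -0.059 to 0.032 for NR1D1, -0.051 to 0.016 for ARNTL2, -0.20 to 0.11 for HLF, -0.015 to 0.025 for CSNK1A1 and -0.066 to 0.026 for FBXW11. Within 1 direction they were -0.13 to -0.032 for PER2, -0.095 to -0.037 for ARNTL, 0.036 to 0.076 for CLOCK and 0.0018 to 0.040 for NR1D2.

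The replicate numbers were not taken to pair the libraries, since same-numbered libraries deviated with r of 0.028, -0.024, 0.031 and 0.27 and differently numbered ones with r of -0.29 to 0.17, so only the pair numbered 4 stood above that range. With the replicate block 6 genes of all passed the adjusted threshold, CRY1 had -0.0022, and 2 genes of the wider list, KLF10 and CREBBP, had an unadjusted p under 0.05. Of the 10 clock genes PER3 had the fewest counts, 108 to 187 per library, and HLF of the wider list had 58 to 114.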
